A study of Mus musculus with 7 samples.

Results

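The 3 RNA-seq libraries made from pieces of the KO tumor were compared with each other, out of 7 tumor libraries in the series. They were taken by their sample title, and genes were chosen by having at least 10 counts in any of the 3 libraries, which 17421 of 46603 counted genes had. Each gene was then ranked by its log2 CPM (counts scaled to a common library size) in a piece minus the mean of the other two, a difference called the deviation below. These same values chose every gene named as high or low in a piece, so they are given as a description with no p-value. At the edge of the rule, 252 genes had 10 counts in their highest library and were kept, and 256 genes had 9 and were not.

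The study asked whether loss of nuclear myosin 1 (NM1), an isoform of the myosin gene Myo1c, makes fibroblasts tumorigenic. NM1 KO mouse embryonic fibroblasts (MEFs) were made with CRISPR/Cas9 from a wild-type MEF line and injected into female Balb/c nude mice of 16 weeks, with 5 mice per group. By the labels the tumors were taken after 30 days. The paper itself has a slightly shorter time. The labels place the cells under the skin of the right flank, whereas the results of the study name the mammary pads. The KO tumor was cut into 4 pieces that were homogenized separately, and libraries of 3 are analysed here. According to the labels the pieces are of 1 tumor, although the methods write of tumors. The spread between pieces therefore holds no known spread between mice, and 3 pieces do not stand for 3 tumors. The hosts lack a working Foxn1 gene and most T cells, and no piece was sorted, so RNA of the injected fibroblasts and of host tissue was read together.

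Skin is built of basal keratinocytes that carry Krt5 and Krt14 and of differentiating layers that replace them with Krt1, Krt10 and the cornified envelope protein loricrin. Hair follicles add an inner root sheath, a moulding sleeve around the growing hair whose keratins (Krt25, Krt27, Krt28, Krt71) are cross-linked with trichohyalin, the product of Tchh. Skeletal muscle fibres are told apart by their myosin heavy chain, with Myh4 in the fastest fibres, Myh1 and Myh2 in intermediate ones and Myh7 in slow ones. In bulk RNA, fewer cells of a type and less RNA per cell cannot be told apart.

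KO piece 02 stood apart by skin and hair follicle genes and KO piece 01 by low skeletal muscle genes. KO piece 03 did so by the absence of inner root sheath keratins and by high interferon genes. In piece 01, 7 of 13 genes of bone-resorbing cells were also high, on a list chosen after the values were seen. The 4 marker genes of the comparison parted the pieces as follows. Krt1, a keratin of the differentiating epidermis (chr15:101845426-101850794, minus strand), had 18, 7371 and 0 counts in KO pieces 01, 02 and 03. Tchh (chr3:93442330-93449077, plus strand) had 1628, 26251 and 122. Krt71 (chr15:101733949-101743109, minus strand) had 952, 14441 and 0. Myh4 (chr11:67238029-67260446, plus strand) had 19719, 230345 and 197143. The skin markers were thus highest in piece 02 and the muscle marker was lowest in piece 01. All coordinates are GRCm38 and span whole genes, and the counts are of reads on their exons.

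The letters just before the start of 4 of these genes are shown because the sets they belong to moved together. Each run holds the 250 bases before the RefSeq start, 5′ to 3′ on the strand of the gene, from the RefSeq table of build GRCm38.p6. Capitals mark TATAAA in Krt71, TATAAA, the E-box CAGCTG and the CArG box (bound by serum response factor) in Myh4, and the core of the interferon-stimulated response element, a pair of GAAA runs parted by 2 bases of any kind, in Isg15 and Ifit1. Krt71 lies at chr15:101743098-101743347 (minus), Myh4 at chr11:67237562-67237811 (plus), Isg15 at chr4:156200819-156201068 (minus) and Ifit1 at chr19:34640639-34640888 (plus). The RefSeq start of Myh4 is 217 bases before the start of the gene in GENCODE M21, while the other 3 starts lie within 18 bases of it.
Krt71: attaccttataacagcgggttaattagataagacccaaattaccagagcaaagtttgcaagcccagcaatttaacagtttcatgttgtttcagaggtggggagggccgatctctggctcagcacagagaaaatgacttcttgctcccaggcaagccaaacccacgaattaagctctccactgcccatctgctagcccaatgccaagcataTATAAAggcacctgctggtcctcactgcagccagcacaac
Myh4: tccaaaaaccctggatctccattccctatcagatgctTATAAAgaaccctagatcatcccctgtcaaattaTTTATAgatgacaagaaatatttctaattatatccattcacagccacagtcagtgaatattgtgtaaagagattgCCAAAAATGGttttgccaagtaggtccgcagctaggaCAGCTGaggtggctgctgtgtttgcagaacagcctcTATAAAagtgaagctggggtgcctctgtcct
Isg15: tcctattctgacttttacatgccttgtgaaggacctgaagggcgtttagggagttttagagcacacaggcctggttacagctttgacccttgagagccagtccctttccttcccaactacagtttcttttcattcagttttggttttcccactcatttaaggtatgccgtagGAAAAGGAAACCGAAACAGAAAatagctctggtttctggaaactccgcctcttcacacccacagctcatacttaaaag
Ifit1: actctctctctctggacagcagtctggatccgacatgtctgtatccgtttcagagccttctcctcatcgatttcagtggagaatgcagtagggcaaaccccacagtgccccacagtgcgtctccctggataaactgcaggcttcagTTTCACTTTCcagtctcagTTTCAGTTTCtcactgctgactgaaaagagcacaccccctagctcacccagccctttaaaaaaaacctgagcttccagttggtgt

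Both strands were searched, the E-box reads the same on both, and a CArG box can hold TATAAA inside it. The motifs were chosen after the values were seen, and a match is a description of the letters only. The interferon core was present in 6 of 9 promoters of the interferon list (66.7%) and in 978 of all 32851 promoters (2.98%). CAGCTG was present in 8 of 15 promoters of the fast fibre list (53.3%), in 9 of 19 for genes of both fibre kinds (47.4%), in 4 of 13 of the slow fibre list (30.8%) and in 4271 of all promoters (13.0%). TATAAA was present in 6 of 9 inner root sheath promoters (66.7%), in 9 of 30 cornified epidermis promoters (30.0%) and in 3 of 9 interferon promoters (33.3%). It was present in 3 of 15 fast fibre promoters (20.0%), in 3 of 13 slow fibre promoters (23.1%) and in 12.4% of all. Below that share were genes of both fibre kinds, with 2 of 19 (10.5%), and of bone-resorbing cells, with 0 of 13. The CArG box was present in 1 of 15 fast fibre promoters (6.67%), in 4 of 19 for genes of both fibre kinds (21.1%) and in 1.47% of all, and the MEF2 site in 0 of 15, in 3 of 19 (15.8%) and in 0.508%. The table held 9 of 12 genes of the interferon list, 14 of 19 of the fast fibre list, 15 of 25 of both fibre kinds and 10 of 10 of the slow list. It also held 9 of 10 of the inner root sheath list, 26 of 34 of the cornified list and 7 of 14 genes of bone-resorbing cells. Some genes have more than 1 promoter in it.

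The libraries were close in depth and composition. Total counts were 26527540 to 28326568, 22706 to 22914 genes had a count, the 10 most abundant genes took 4.35% to 4.97% of the counts and genes of the mitochondrial genome 1.81% to 2.14%. A gene with 3 counts, the floor used for a library at 0, was at 0.106 to 0.113 CPM. Intervals and floors below are at 95% and cover counting error only. Myo1c, whose NM1 isoform was targeted, had 9376, 8316 and 9271 counts, and gene counts do not separate the isoform, so the deletion was not checked here. Across genes, which are not independent replicates, log2 CPM correlated with r = 0.948 between pieces 01 and 02, 0.971 between 01 and 03 and 0.947 between 02 and 03. Genes at least 2-fold apart numbered 2529 (14.5%), 1957 (11.2%) and 1652 (9.48%) for the same pairs.

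Most genes were shared. The 3 pieces lay within 0.5 on the log2 scale in 10801 genes, 62% of those tested, while 3432 genes (19.7%) spanned at least 2-fold. KO piece 01 was at least 2-fold above the mean of the other two in 440 genes (2.53%) and below it in 1601 (9.19%). KO piece 02 was above in 1421 (8.16%) and below in 459 (2.63%). KO piece 03 was above in 719 (4.13%) and below in 802 (4.6%). The mean of the other two is pulled down by a library at 0, so that Krt71 and Krt27 ranked among the 10 highest genes of piece 01 although piece 02 was over 15-fold higher. A stricter rule, chosen after this was seen, asks for 2-fold beyond each of the other two. It left 208 genes above (1.19%) and 916 below (5.26%) in piece 01, 824 above (4.73%) and 230 below (1.32%) in piece 02, and 235 above (1.35%) and 293 below (1.68%) in piece 03. These percentages are the share over all genes for list members counted as above or below in a piece, which uses the strict rule. Members counted as highest or lowest have another background, the order of the pieces over all tested genes. Piece 01 was highest in 3128 (order 01, 02, 03) and 3586 genes (01, 03, 02). Piece 02 was highest in 2110 (02, 01, 03) and 3637 (02, 03, 01). Piece 03 was highest in 1865 (03, 01, 02) and 3095 (03, 02, 01). The median deviation over all tested genes was -0.01 in piece 01, 0.0028 in piece 02 and -0.0004 in piece 03.

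**Figure D1:**
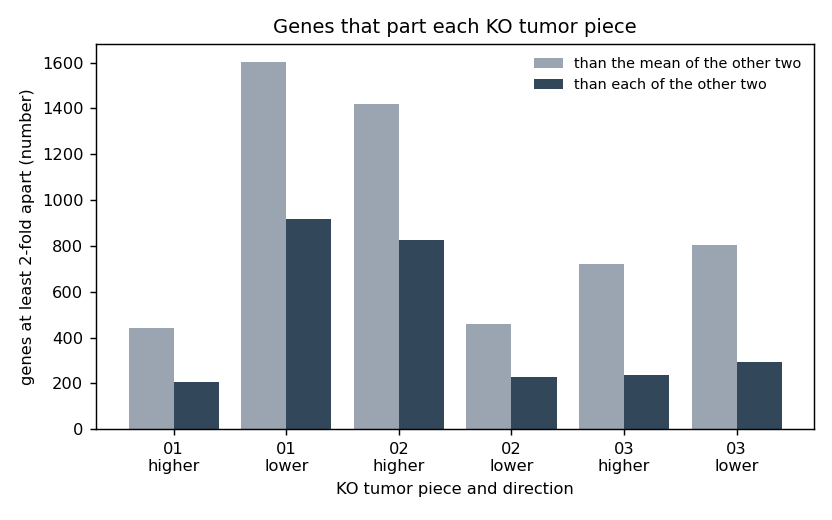
Number of genes at least 2-fold higher or lower in each KO tumor piece, on a linear axis from 0, than the mean of the other two (light bars) or than each of them (dark bars). Piece 01 has the most genes on the low side (1601 and 916) and piece 02 the most on the high side (1421 and 824).

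Nearly all skin and hair genes on the lists were high in KO piece 02. The skin, hair, sebaceous and melanocyte lists held 112 tested genes. Of these, 97 were at least 2-fold above each other piece in piece 02, as were 4.73% of all tested genes. The 97 were a small part of the 824 genes above in that piece, most of which are on no skin list. Most tested genes of skin gene clusters went the same way. Of the epidermal differentiation complex from Lor to Tchhl1 (chr3:92080271-93471980), 40 of 44 tested genes were above in piece 02, as were 43 of 45 in the type I keratin cluster from Krt25 to Krt42 (chr11:99315516-100269871) and 21 of 23 in the type II cluster from Krt80 to Krt18 (chr15:101347444-102032027). The tested genes of these lists and clusters had passed the count filter in any piece, which piece 02 alone could meet. A library was at 0 counts in 19 of 32 tested cornified, 17 of 26 hair shaft and 8 of 10 inner root sheath genes. The counts of these lists and clusters are therefore not weighed against the 4.73%. By family, 37 of 41 tested keratins were above in piece 02. So were all 28 tested of 56 hair keratin-associated proteins and all 18 tested of 21 late cornified envelope genes. These 2 families summed to 111, 2668 and 2 and to 11, 1230 and 1 counts in pieces 01, 02 and 03. Most of their tested members thus passed the filter through piece 02 alone, which favoured that result. Their counts cannot be weighed against the 4.73% either. Members of these families are near copies of each other, and how reads that match several of them were counted is not known.

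Among basal keratinocyte genes, Krt5 had 319, 7180 and 0 counts and Krt14 had 289, 8176 and 14 in pieces 01, 02 and 03. Krt5 was 24.0-fold higher in piece 02 than in piece 01 and at least 2538-fold higher than in piece 03. Trp63, the transcription factor of stratified epithelium, had 29, 617 and 138 counts. Of the 16 genes of the basal list 12 were above in piece 02, with median deviations of -0.84, 3.37 and -1.49. Among the exceptions, Itga6, an integrin that other cells also carry, had 1600, 1174 and 1347 counts.

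Genes of the differentiating and cornified layers were far higher in piece 02. Krt10, the partner of Krt1, had 100, 7308 and 73 counts, and Lor, which encodes loricrin, had 46, 4753 and 30. Krt10 was 77.9-fold and Lor 110.1-fold higher in piece 02 than in piece 01. Calm4, a calcium-binding protein of skin, had 2, 1808 and 0 counts, a ratio of 964 with an interval of 266 to 7963. Krt77, a keratin of differentiated epidermis, had 3, 2256 and 0. In all, 31 of the 32 tested cornified genes (34 on the list) were above in piece 02, with median deviations of -2.03, 6.22 and -3.93. Flg, which encodes filaggrin, was at 0 in all 3 libraries and Krt2 had 1 count in piece 02 alone. Why these 2 list members had almost no counts was not tested, and the counts do not show that their RNA was absent.

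The hair follicle lists were also highest in piece 02. Inner root sheath genes were present in piece 01 and nearly absent from piece 03. Krt25 had 366, 5980 and 0 counts, Krt27 had 427, 6145 and 0, and Krt28 had 62, 1122 and 0. Krt71 was 16.2-fold higher in piece 02 than in piece 01, and in piece 01 at least 316-fold higher than in piece 03. Tchh was 17.2-fold higher in piece 02 than in piece 01 and 13.3-fold higher in piece 01 than in piece 03. All 10 genes of the list were above in piece 02 and 9 were below in piece 03. The summed level was 145, 2244 and 11.9 CPM, and none of the 11.9 came from the sheath keratins, which had no count in piece 03.

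The balance between 2 keratin sets differed between pieces 01 and 02. The sheath set was Krt25, Krt27, Krt28, Krt71, Krt72, Krt73 and Krt74. The set called epidermal here joined the basal keratins Krt5, Krt14 and Krt15 with Krt1, Krt10 and Krt77. The share compares these gene sets and does not measure hair against epidermis as tissues. Inner root sheath keratins made up 71.6% (interval 69.8% to 73.2%, exact Clopper-Pearson) of the sheath and epidermal keratin counts in piece 01 and 48.6% (48.2% to 49.0%) in piece 02. In piece 03 they made up 0 of 88 counts, which allows a share of up to 4.11% by the same method. On the log2 scale, piece 01 minus piece 02 had a median of -4.11 over inner root sheath genes and -3.88 over hair shaft genes, between -5.34 over cornified genes and -3.23 over basal genes.

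Hair shaft genes had 25 of 26 tested members (28 on the list) above in piece 02. Krt31 had 40, 587 and 0 counts and Krt35 had 23, 650 and 0. Hoxc13, a transcription factor of the hair shaft that other cells express as well, was the exception at 336, 435 and 209. Foxn1, which drives hair keratin genes and is mutated in these hosts, had 20, 95 and 13 counts. The shaft keratins and keratin-associated proteins were thus read in a nude host. In the outer root sheath and stress keratin list 8 of 12 genes were above in piece 02, led by Krt17 with 276, 6139 and 0 counts and Krt79 with 120, 2673 and 0. Of the sebaceous gland list 5 of 9 tested genes were above in piece 02 and of the melanocyte list 6 of 7, where the pigment enzymes Dct and Tyr had 11, 261 and 0 and 0, 32 and 0 counts.

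Fitted deviations of genes at 0 depend on the prior count. With each library at 0 set to the floor of 3 counts, the median deviation in piece 02 was 6.54 for the inner root sheath, 6.28 for the cornified list, 4.86 for the hair shaft and 3.51 for the basal list. In piece 03 it was -6.68 for the inner root sheath, -3.65 for the cornified list and -3.06 for the hair shaft. The same order of pieces held, with piece 02 first, in all 4 lists.

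**Figure D2:**
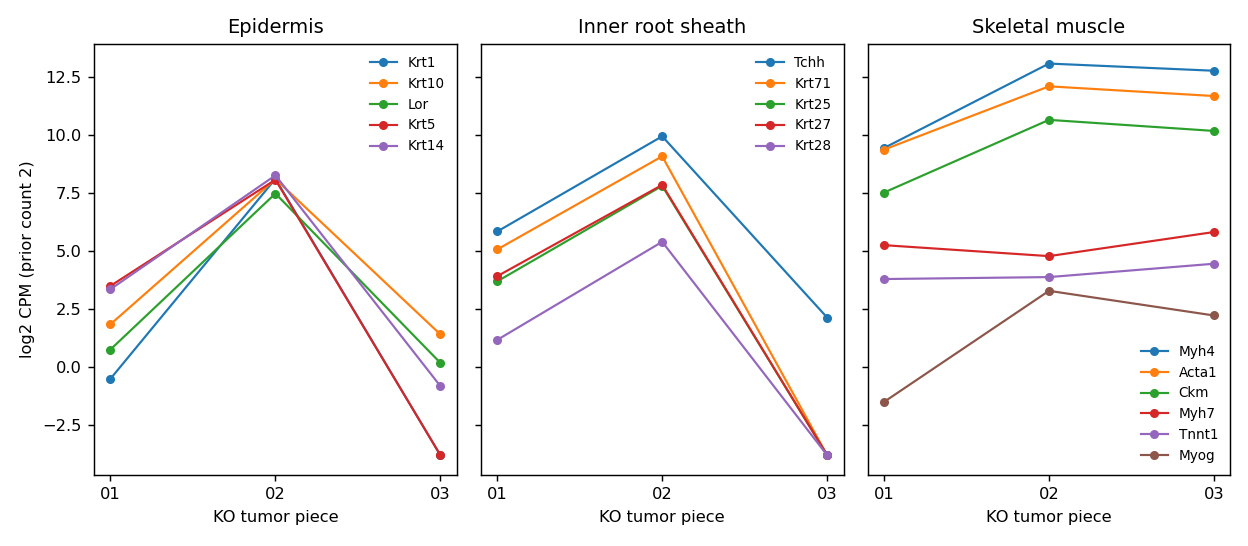
log2 CPM (prior count 2) of single epidermal, inner root sheath and skeletal muscle genes in the 3 KO tumor pieces, 1 line per gene, where the lines only join the points of a gene and the lowest points at the bottom of the axis are genes with 0 counts. The skin genes peak in piece 02, the fast muscle genes dip in piece 01, and the slow muscle genes Myh7 and Tnnt1 vary less than these.

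Skeletal muscle genes parted KO piece 01 from both others. Of 69 tested genes on the muscle lists, 53 were at least 2-fold below each other piece in piece 01, against 5.26% of all genes. Acta1, the actin of the sarcomere, had 18803, 116686 and 92640 counts. Ckm, muscle creatine kinase, had 5218, 42872 and 32668, and Ttn, the giant spring protein titin, had 7810, 41498 and 42842. Piece 01 held the lowest value of each, while pieces 02 and 03 were close. Myh4 was 12.5-fold higher in piece 02 and 10.1-fold higher in piece 03 than in piece 01, and only 1.24-fold apart between 02 and 03. Of the fast fibre list 18 of 19 genes were below in piece 01 and of the genes of both fibre kinds 24 of 25, with median deviations of -2.66 and -2.65. Cacng1, a subunit of the muscle calcium channel, was the furthest below of the latter list, with 61, 3017 and 2057 counts.

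Slow fibre genes did not follow. None of 10 was below in piece 01, with median deviations of -0.23, -0.29 and 0.65, and 9 were highest in piece 03. Myh7 had 1082, 731 and 1594 counts and Tnnc1, slow troponin C, had 215, 83 and 238. Piece 01 minus piece 02 had a median of -0.01 over the slow list and -2.84 over the fast list. As a share of myosin heavy chain counts, Myh4 was 71.8%, 94.5% and 91.5%, Myh1 was 15.2%, 2.47% and 4.27%, and Myh7 was 3.94%, 0.30% and 0.740% in pieces 01, 02 and 03. Slow genes made up 5.24% (5.09% to 5.39%) of the slow and fast counts in piece 01, 0.898% in piece 02 and 1.52% in piece 03. Myh1, Myh2 and Myh4 are near copies, and reads that match several of them may have been lost or misplaced in counting.

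Genes of muscle that is forming or has lost its nerve were low in piece 01 as well. Myog and Myf6, which drive muscle differentiation, had 8, 258 and 130 and 30, 1023 and 582 counts. Musk, the receptor that gathers acetylcholine receptors at the nerve contact, had 1, 157 and 108. Piece 02 over piece 01 was 34.4-fold for Myog and 167-fold for Musk, the latter with an interval of 29.6 to 6652. Of the tested regulator and immature muscle genes 11 of 15 were below in piece 01, while Pax3 was level at 479, 463 and 451 counts. A list of genes that rise when muscle loses its nerve, chosen after the values were seen, had 10 of 15 below in piece 01, with median deviations of -2.32, 1.43 and 0.25. This list shares members such as Musk and Sln with the muscle lists above, so its 10 are not all separate from those already counted. Within it Sln, the calcium pump inhibitor sarcolipin, set the pieces 02 and 03 apart too, with 97, 1910 and 364 counts. Trim63, a ubiquitin ligase of wasting muscle, had 132, 4097 and 3003.

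**Figure D3:**
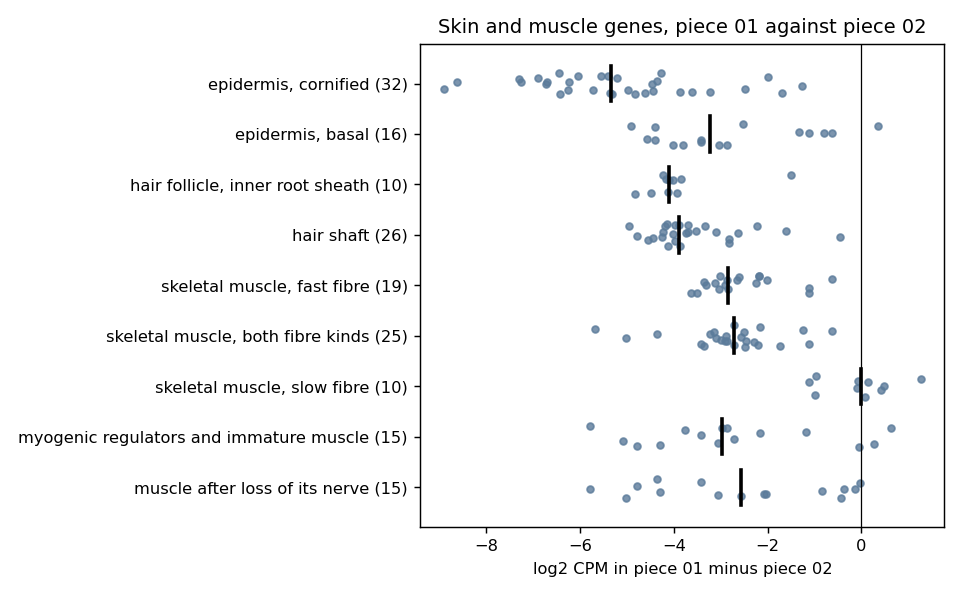
Difference in log2 CPM between piece 01 and piece 02, 1 point per gene and a black bar for the median of each list, with the number of genes in brackets. The slow fibre list is centred at -0.01 while the medians of the other muscle lists and of the 4 skin and hair lists lie below 0, the cornified list furthest at -5.34.

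Genes lowest in piece 01 were not only those of muscle fibres. By the rule for named genes the 5 lowest were Sim2, Krt18, Fcgbp, Musk and Cacng1. Sim2, a transcription factor, had 0, 213 and 209 counts, at least 75.7-fold higher in piece 02. Krt18, a keratin of simple epithelium, had 7, 1196 and 714, and its partner Krt8 had 53, 208 and 540, the highest in piece 03. Fcgbp, a mucus protein, had 1, 535 and 36. On the mammary and simple epithelium list 6 of 10 tested genes were below in piece 01. The caseins, milk proteins, were low throughout and Csn2 had 7, 59 and 59 counts, while the milk gene Wap was at 0 in all pieces.

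What was high in piece 01 was smaller and of another kind. None of the 208 genes above each other piece was on the skin or the muscle lists. Mcpt2, a mast cell protease, had 196, 13 and 30 counts, Mmp13, a collagenase, had 2580, 296 and 621, and H2-M2, a class I-like histocompatibility gene, had 2213, 333 and 421. Piece 01 was 14.1-fold above piece 02 for Mcpt2, 8.18-fold for Mmp13 and 6.23-fold for H2-M2. Tro had 182, 16 and 54 counts, the neurofilament gene Nefl 567, 102 and 122, the kinase gene Rps6ka6 459, 83 and 123, and the BMP antagonist Grem1 474, 67 and 174.

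Some osteoclast genes were above in piece 01, on a list that was chosen after the values were seen and so is not ranked against the others. Osteoclasts are fused cells of the macrophage lineage that resorb bone, and some of their genes are used by other fused macrophages. Ctsk, a collagen-cutting cathepsin, had 5956, 1626 and 2898 counts, and Acp5, tartrate-resistant acid phosphatase, had 4953, 1287 and 1445. Dcstamp and Ocstamp, which are needed for cells to fuse, had 160, 33 and 55 and 112, 13 and 14. Piece 01 was 3.61-fold above piece 02 for Acp5 and 8.08-fold for Ocstamp. Of the 13 tested genes of this list 7 were above in piece 01, with median deviations of 1.09, -0.64 and -0.28. Nfatc1, the regulator of the lineage, was level at 1899, 1831 and 1897 counts, and macrophage genes as a whole were shared. Mast cell genes leaned the same way with median deviations of 0.71, 0.27 and -0.97, and all 10 were lowest in piece 03. Of 18 proliferation genes 17 were highest in piece 01, and 17 stayed within 0.5 on the log2 scale. Mki67, which marks dividing cells, was the one outside it, with 14629, 9664 and 10931 counts.

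Fat and B cell genes were highest in KO piece 02 together with the skin genes. All 12 white adipocyte genes were highest there, and 8 were at least 2-fold above each other piece. Adipoq, the hormone adiponectin, had 12, 264 and 81 counts, and Cfd, the protease adipsin, had 213, 2232 and 565. All 9 B and plasma cell genes were highest in piece 02 and 7 were at least 2-fold below in piece 01. Lymphatic endothelial genes were highest in piece 02 in 5 of 5. Few genes were low in piece 02, and none of those on the skin lists. By the same rule the lowest were Pcdh10, an adhesion molecule, with 147, 12 and 180 counts, Xlr with 345, 48 and 403, Tro, Mcpt2 and Dock3 with 271, 45 and 179.

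KO piece 03 was set apart on the low side by inner root sheath genes most of all and on the high side by interferon genes. Of 112 tested skin genes 55 were below each other piece, as were 293 (1.68%) of all tested genes, none on the muscle lists. They were 9 of 10 inner root sheath, 17 of 32 cornified, 14 of 26 hair shaft and 6 of 12 outer root sheath genes. The rest were 4 of 16 basal, 2 of 9 sebaceous and 3 of 7 melanocyte genes. Piece 01 was about as low as piece 03 for basal and sebaceous genes, with a median of 0.22 and -0.0037 for piece 01 minus piece 03. Isg15, a ubiquitin-like protein made on interferon, had 742, 797 and 1725 counts, and Irf7, a factor that drives interferon genes, had 1876, 2117 and 4893. Ifi44 had 417, 447 and 1350, and Ifit1, whose promoter is shown above, had 603, 641 and 1493. Ifi44 was 3.25-fold above piece 01 and 2.85-fold above piece 02. All 12 interferon genes were highest in piece 03 and lowest in piece 01, and 6 were at least 2-fold above each other piece, against 1.35% of all genes. Their median deviations were -0.77, -0.25 and 1.17.

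Matrix genes were higher in piece 03 by smaller steps. Col1a1, the main chain of collagen I, had 114687, 99006 and 176453 counts and Postn, periostin, had 6852, 8589 and 13382. Of 20 fibroblast and matrix genes 18 were highest in piece 03, while the other 2, Hmga2 and Vim, were highest in piece 01. None of the 20 was 2-fold above each other piece, so no count of calls sets this list apart. Of 19 collagen genes, on a list also chosen after the values were seen, 14 were highest in piece 03 and 2 were above each other piece, with median deviations of -0.08, -0.41 and 0.42. Of 14 tendon genes, on a list chosen after the values were seen, 11 were highest in piece 03 and 3 were above each other piece. Lox and Tnc are on the matrix list as well, and Col11a1 and Col12a1 on the collagen list. Comp, a matrix protein of tendon and cartilage, had 16, 65 and 272 counts, and Thbs4, its relative, had 151, 899 and 2085. Tendon genes were also low in piece 01, where 8 of 14 were at least 2-fold below. Arg1, which breaks down arginine, had 8, 63 and 244 counts and ranked second in piece 03 after Sim2. Sim2, Krt18, Musk, Bex1, Ctxn3 and Cacng1 ranked among the 10 highest of piece 03 although piece 02 was higher than piece 03 in each, since piece 01 was far below both.

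**Figure D4:**
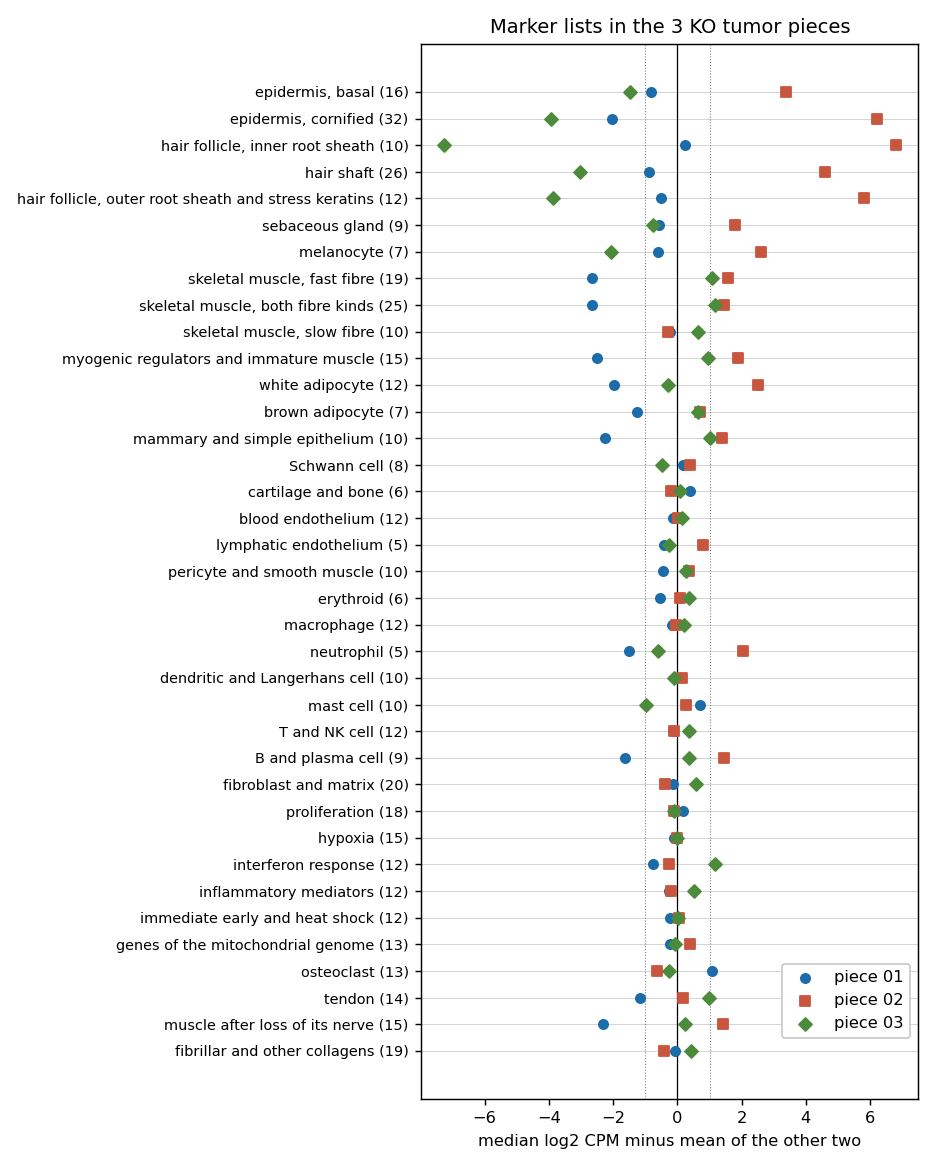
Median deviation of the tested genes of each marker list, in log2 units, with circles for piece 01, squares for piece 02 and diamonds for piece 03, the number of genes in brackets and dotted lines at 2-fold. Skin lists have piece 02 furthest to the right, the muscle lists other than the slow fibre list have piece 01 furthest to the left, and the macrophage, blood endothelium, hypoxia and proliferation lists sit near 0.

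**Figure D5:**
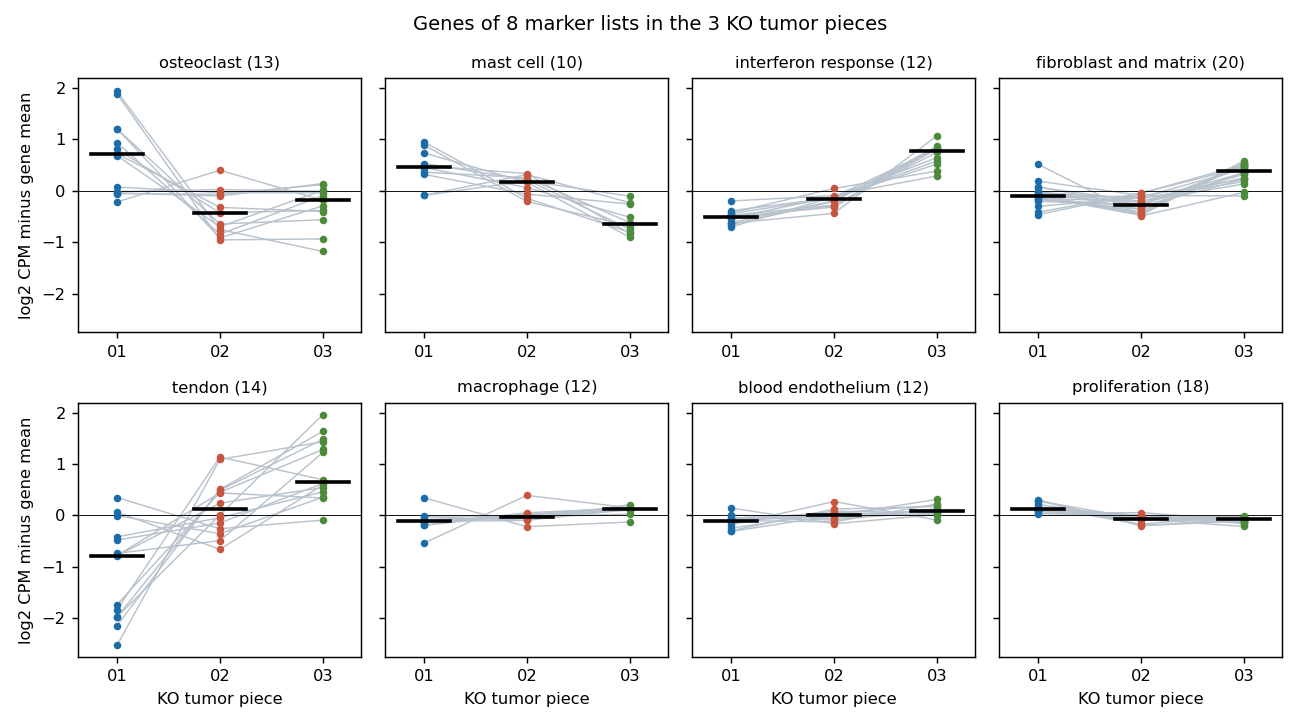
log2 CPM of each gene minus its mean over the 3 KO tumor pieces, 1 thin line per gene and a black bar for the median of the list in each piece. Osteoclast genes sit high in piece 01, interferon and tendon genes in piece 03, and macrophage, blood endothelium and proliferation genes differ little.

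Macrophage and blood endothelial genes were shared by the pieces, as were genes that every cell uses. Per kb of exon, the most abundant shared protein-coding genes were mt-Co1 with a mean of 5013 CPM per kb, mt-Cytb with 3059 and mt-Nd1 with 2511, followed by the lectin gene Lgals1 with 2499 and Cd74, the chaperone of class II histocompatibility proteins, with 2200.5. The translation factor Eef1a1, mt-Atp8, B2m, Rplp1 and Rps15 completed the 10. Of 12 macrophage genes 10 lay within 0.5 on the log2 scale, against 62% of all genes. By small steps 10 of the 12 were highest in piece 03 and 9 lowest in piece 01. C1qa, a complement protein of macrophages, had 25524, 24634 and 29576 counts, and Lyz2, lysozyme, had 26592, 27669 and 30960. Of 12 blood endothelial genes 11 lay within 0.5, and Pecam1 had 1787, 1822 and 2018 counts. In that list too, 8 genes were highest in piece 03 and 8 lowest in piece 01. T and NK cell genes did so in 6 of 12, hypoxia genes in 9 of 15 and early response and heat shock genes in 7 of 12, each below the 62% of all genes. Fibroblast genes were abundant in each piece, but only 5 of 20 fibroblast and matrix genes lay within 0.5. Vim, the fibroblast intermediate filament, had 86255, 66721 and 70241 counts.

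Markers of distant organs were at or near 0. None of 13 liver, lung, pancreas and gut genes reached 10 counts in any piece, and their summed level was 0.390 to 0.492 CPM. Ucp1, the marker of brown fat, had 2, 1 and 4 counts. Mitochondrial genome transcripts were highest in piece 02 for 13 of 13 genes, with median deviations of -0.23, 0.38 and -0.08. Skin and fat genes were highest in the same piece, and their part in that difference was not tested.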

How the data were processed

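RNA-seq was made from pieces of tumors with NEBNext Ultra II libraries. The authors trimmed reads with Trimmomatic 0.36, checked them with FastQC, aligned them to GRCm38 with HISAT2 2.0.4, handled them with SAMtools 0.1.19 and deposited raw read counts per Ensembl gene from HTSeq-count, whose version, annotation release and strand option are not given in the sources used here. Reads of a gene and of an antisense or overlapping gene therefore cannot be told apart. Of 46603 identifiers 46091 had a symbol in GENCODE M21, also GRCm38, and 68 of the 17421 tested genes had none.

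The 3 KO libraries (26527540 to 28326568 counts) were scaled together by TMM (edgeR 4.0.16, R 4.3.3). The 4 KO+NM1 libraries were left out. log2 CPM used a prior count of 2. Genes needed 10 counts in any library. No test was run, since each side is 1 library against 2. Folds are ratios of CPM with exact binomial intervals, and against 0 counts a floor of 3 counts per library was used. The deviations were tested on simulated data with known folds. No library repeats another: over genes with at least 20 counts in a pair, chi-square divided by its degrees of freedom was 590 to 668.

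Named genes are the 4 markers and Myo1c, the 10 highest and 5 lowest protein-coding genes of each piece with at least 5 CPM in 1 library, for each list the 3 members with the highest mean CPM and those with the highest and lowest deviation, and the 10 most abundant shared genes per kb. Other list members named as examples, such as Myog or Ocstamp, were chosen after their values were seen. Members and gene lists were chosen with earlier results of these data known, and the osteoclast, tendon, nerve loss and collagen lists after the values were seen. The symbols Ahsp, Ccl21a and Krt85 were not matched to a single identifier. Tables were handled with Python 3.11.15 and pandas 2.3.3 and plotted with matplotlib 3.10.9. Alternatives were library size alone, DESeq2 1.42.0 size factors, upper-quartile factors, no mitochondrial genes, no skin and muscle lists, other count filters and priors, 4-fold, a range of 0.3, list means, and leaving out a piece.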

Additional observations from a re-analysis of the deposited data

How the results depend on the processing

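No scaling, prior count or left-out gene class changed a count of genes by over 1.5 times. They turned the sign of 2 list medians near 0, the inner root sheath in piece 01 (0.24, and -0.21 with prior count 5) and early response genes in piece 03 (0.020, and -0.0018 with library size alone). Filters and the fold rule changed the counts. With at least 1 count in any library, the genes above and below the mean of the other two were 921 above in piece 01, 2256 above and 897 below in piece 02, and 1271 above and 1271 below in piece 03. With at least 10 counts in every library they were 124 above and 760 below in piece 01, 559 and 131 in piece 02, and 329 and 138 in piece 03. At 4-fold they were 57 and 553, 660 and 68, and 85 and 348. The rule of 2-fold beyond each of the other two, added after the data were seen, gave 208 and 916, 824 and 230, and 235 and 293. Leaving out 1 of the other pieces gave 579 to 1367 genes above in piece 03, the 1367 without piece 02.

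Single list medians turned. Leaving out a piece, the cornified list in piece 01 was -5.34 to 1.23 (1.23 without piece 02, whose skin genes are the highest), and in piece 03 the fast fibre list was -0.26 to 2.49, genes of both fibre kinds -0.18 to 2.48 and the mammary list -0.14 to 2.09 (each negative without piece 01). Medians in piece 01 also turned for the hair shaft (-0.89, and 1.26 without piece 02), the outer root sheath (-0.50, and 1.06), melanocyte (-0.59, and 0.90) and basal lists (-0.84, and 0.22), and for the inner root sheath (0.24, and -4.11 without piece 03). In piece 03 they turned for myogenic regulators (0.97, and -0.60) and brown adipocyte genes (0.65, and -0.084), both without piece 01, and for sebaceous (-0.74, and 0.0037) and neutrophil genes (-0.60, and 0.42), both without piece 02. Of the medians within 0.5 of 0, 26 changed sign when a piece was left out, among them that of the inner root sheath above and white adipocyte genes in piece 03 (-0.28, and 1.23 without piece 02). Means in place of medians turned 4, of which brown adipocyte genes in piece 03 had the median furthest from 0 (0.65, and a mean of -0.20). The osteoclast list in piece 01 was 1.03 to 1.23. With at least 10 counts in every library, the outer root sheath list in piece 03 was 0.041 in place of -3.86 and the neutrophil list in piece 02 was -0.014 in place of 2.05, over the fewer genes left. With skin and muscle lists left out of the table they give no value. No paired analysis was possible because the pieces of 1 tumor were compared with each other and no other group entered.

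Each piece is 1 library, so no difference has a replicate check. Skin genes at 0 in piece 03 are limited by the floor of 0.107 CPM. Piece, dissection site and library cannot be told apart.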

Other observations

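Some values were not given above. Xist, the RNA of the inactive X chromosome, had 2895, 3943 and 4931 counts in KO pieces 01, 02 and 03, and the Y-linked genes Ddx3y, Eif2s3y, Kdm5d and Uty had 0 counts in each. Hmga2, a chromatin protein of embryonic and transformed cells that is on the fibroblast and matrix list, had 7735, 3613 and 5269 counts. Cxcr2, a receptor of neutrophils, had 1, 24 and 3 counts, and S100a8, a calcium-binding protein of neutrophils and of activated skin, had 7, 68 and 10. The most abundant gene of that list, Mmp9, which is on the osteoclast list too, went the other way with 6478, 2944 and 2952, and Ly6g, which marks neutrophils, was at 0 in all pieces. Of the 3432 genes that spanned at least 2-fold, 1132 had the order piece 02, then 03, then 01, and 275 the order 01, 02, 03.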
